A study of Homo sapiens with 6 samples.

Results

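The proteasome genes were taken by symbol: every protein-coding gene of GENCODE release 29 (GRCh38) on chromosomes 1 to 22 and X whose symbol is PSM followed by a letter from A to G and a number. The rule found 49 genes of 19864. It takes in 1 gene that codes for no proteasome part, PSMC3IP, a partner of the meiotic recombination machinery, which is kept and shown apart. The libraries came from K562, an established human leukaemia line grown without treatment, and each group had 2 biological replicates from separate passages. They were made by precision run-on sequencing (PRO-seq), in which engaged RNA polymerases add biotin-labelled nucleotides to nascent RNA in permeabilized cells. In PRO-seq 1M the published protocol was run on 1M cells. In qPRO-seq 1M a shortened protocol was run on that input, and in qPRO-seq 250k it was run on 250k cells. The libraries from 1M cells had 11 PCR cycles and those from 250k cells had 14, so the smaller input and the extra cycles cannot be told apart.

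The data were 3 lists of dREG peaks, 1 per group. dREG is a classifier that marks active promoters and enhancers from run-on reads on both strands. On the chromosomes used, PRO-seq 1M had 24707 peaks, qPRO-seq 1M had 38177 and qPRO-seq 250k had 15562. Each list covers both replicates of its group, so no spread between replicates could be computed and no test between lists was made. Peaks no further than 500 bp from an annotated transcript start of a gene are called its start peaks, and the highest-scored of them its top start peak. The score has no fixed unit and is given as a percentile within its own list (100 is the highest score). Values given for the 3 lists follow the order in which the groups were introduced: PRO-seq 1M, then qPRO-seq 1M, then qPRO-seq 250k. Of 7 erythroid and myeloid marker genes of K562, 6, 7 and 6 had a start peak, and GATA1 and KLF1, the erythroid transcription factors, had one in all 3 lists. Among markers of other cell types, CD3E, PAX5 and ALB had none, and EPCAM had one in both 1M lists.

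The proteasome is the barrel-shaped protease that degrades proteins tagged with ubiquitin. Its core particle has an outer ring of alpha subunits on each side and inner rings of beta subunits, some of which carry the proteolytic sites. The regulatory particle caps the core: its ATPases unfold the substrate and feed it in, while its non-ATPase subunits bind ubiquitin and remove it. In cells exposed to interferon, PSMB8, PSMB9 and PSMB10 can take the place of the constitutive catalytic beta subunits, which forms the immunoproteasome. The transcription factor NFE2L1 is known to raise the constitutive subunit genes together when the protease is inhibited.

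Start peaks were common among the constitutive proteasome genes and were not found at the immune core genes. In PRO-seq 1M, 39 of the 49 genes (79.6%, Wilson 95% interval 66.4 to 88.5) had a start peak, where 52.9% of all protein-coding genes had one. In qPRO-seq 1M the count was again 39 of 49, against 54.5% of all genes. In qPRO-seq 250k it was 35 of 49 (71.4%, 57.6 to 82.2), against 44.0% of all genes. These intervals cover counting error alone. A start peak was present in all 3 lists for 35 of the 49 genes, against 43.1% of all genes, and in none for 10 (20.4%), against 43.5%. The 39 genes were the same in both 1M lists: a start peak in one of them and not in the other was seen for 0 of 49 (which allows a share of up to 6.12%), against 5.39% of all genes.

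By role, all 7 alpha subunit genes and 6 of the 7 constitutive beta subunit genes had a start peak in both 1M lists, and 6 and 5 had one in qPRO-seq 250k. Of the 6 ATPase genes, 5 had one in both 1M lists and 4 of them also in qPRO-seq 250k. Of the 11 non-ATPase genes, 10, 10 and 9 had one. Together, 28 of these 31 constitutive genes (90.3%, 75.1 to 96.7) had a start peak in both 1M lists, and 24 (77.4%, 60.2 to 88.6) had one with the smaller input. The 3 chaperones that assemble the base of the regulatory particle (PSMD5, PSMD9 and PSMD10), the 4 that assemble the core (PSMG1 to PSMG4) and the inhibitor PSMF1 had one in all 3 lists. Of the 4 activator genes, PSME2, PSME3 and PSME4 had one in all lists and PSME1 in none. The immune core genes PSMB8, PSMB9 and PSMB10 had none, nor had the tissue-restricted core genes PSMA8 (known from testis) and PSMB11 (known from thymus), nor PSMC3IP.

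**Figure D1:**
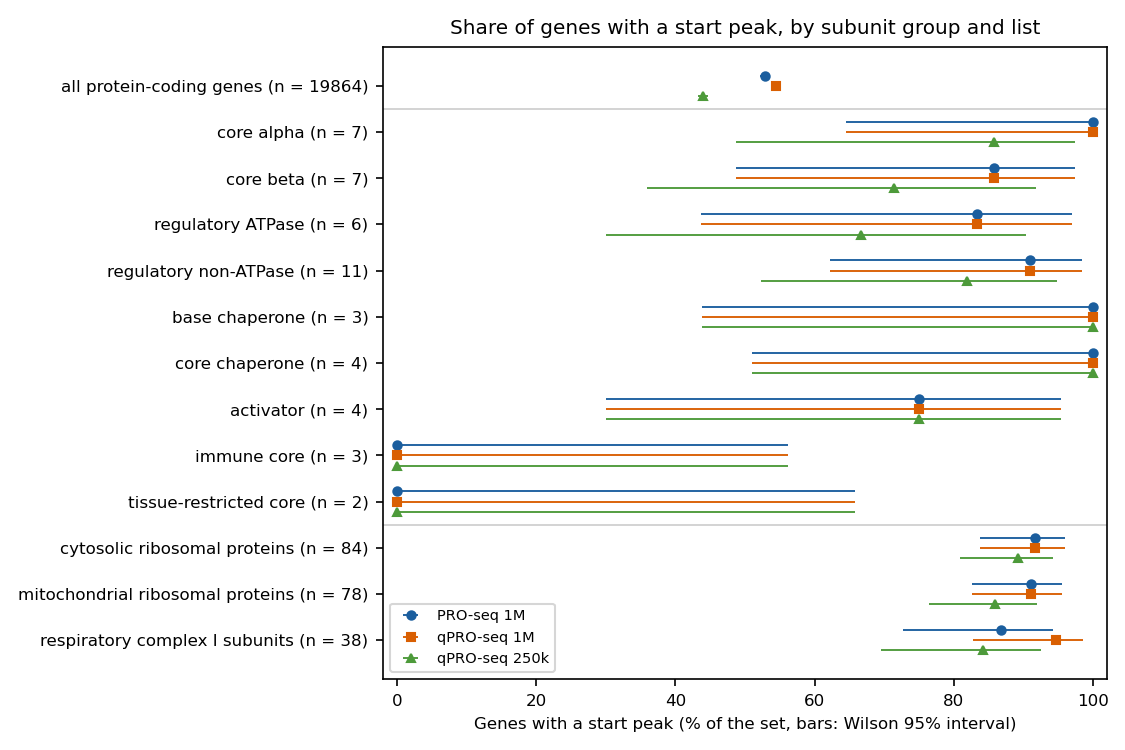
Share of genes with a start peak (percent of each set, x axis) for all protein-coding genes, the proteasome gene groups and 3 other housekeeping gene families; points are the 3 lists and bars are Wilson 95% intervals. The constitutive groups lie between 66.7% and 100%, the immune and tissue-restricted core groups at 0%, with wide intervals because the groups hold 2 to 11 genes.

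Families of other large complexes give the scale for these shares. Among 84 cytosolic ribosomal protein genes, 91.7%, 91.7% and 89.3% had a start peak in the 3 lists. Among 78 mitochondrial ribosomal protein genes the shares were 91.0%, 91.0% and 85.9%, and among 38 genes of respiratory complex I they were 86.8%, 94.7% and 84.2%. The constitutive proteasome genes, at 90.3%, 90.3% and 77.4%, had intervals that overlapped those of all 3 families in each list.

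The top start peaks of the proteasome genes covered most of the score range. Their median percentile was 78.9 in PRO-seq 1M (39 genes), 88.9 in qPRO-seq 1M (39 genes) and 73.9 in qPRO-seq 250k (35 genes), beside 76.4, 80.7 and 68.2 over all protein-coding genes with a start peak. The middle 50% of the proteasome genes lay between 54.3 and 86.9, between 70.0 and 92.8, and between 47.0 and 88.9. The first of these medians depends on which genes and starts are taken: over the constitutive subunits alone it was 73.4, and with the start of the gene record in place of any transcript start it was 72.8, where all genes had 75.8. In PRO-seq 1M the alpha subunit genes had a median percentile of 80.0 and the beta subunit genes one of 60.8, but the beta values ran from 27.1 to 99.1 and the alpha values from 45.5 to 93.8.

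**Figure D2:**
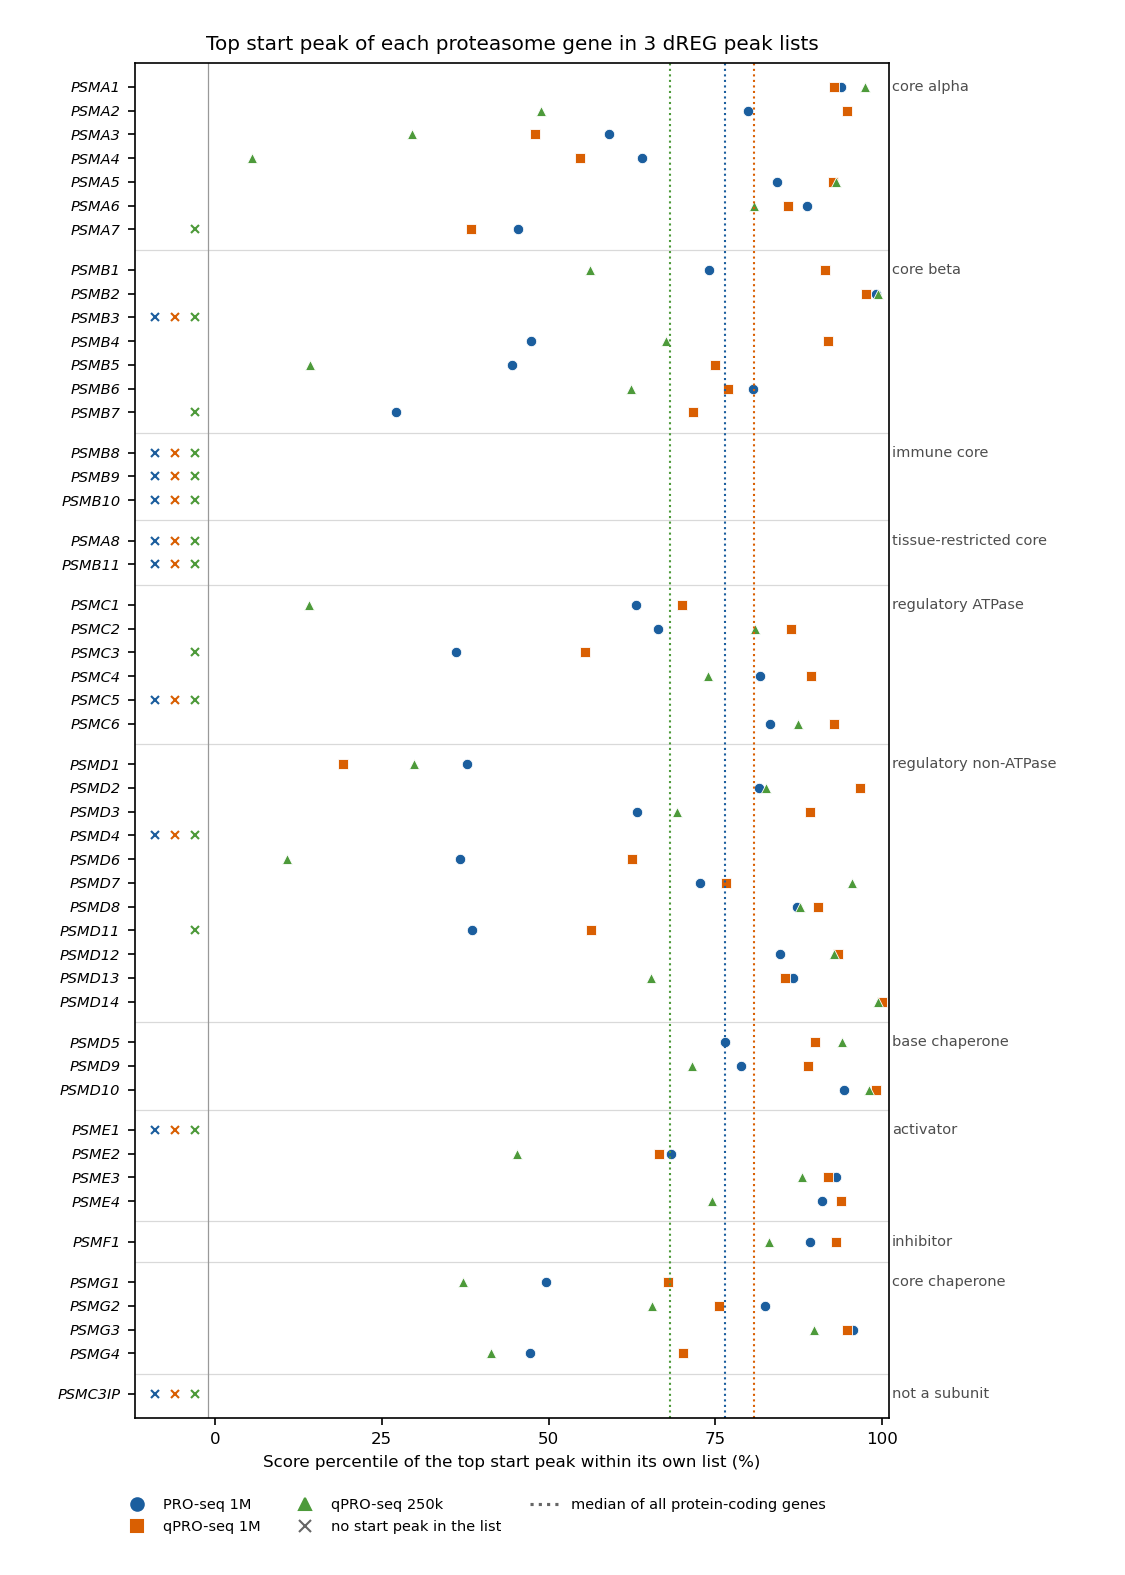
Score percentile of the top start peak of each proteasome gene (x axis, percent of the peaks of its own list at or below it), with genes in rows by role; crosses left of 0 mark genes with no start peak, and dotted lines the medians of all protein-coding genes. PSMB2 and PSMD14 lie above 97 in all 3 lists, and 10 rows hold crosses alone.

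PSMD14 had the highest-scored start peak of the proteasome genes in both 1M lists. It codes for the subunit that cuts ubiquitin chains off the substrate. Its percentiles were 99.9 in PRO-seq 1M, 99.96 in qPRO-seq 1M and 99.3 in qPRO-seq 250k, and the peaks were 720, 850 and 660 bp wide. The 250 bases before its start (chr2:161308175-161308424, plus strand, RefSeq promoter table, GRCh38.p14) are shown because this peak tops the set. The whole stretch lies inside the peaks of both 1M lists and it overlaps the one of qPRO-seq 250k. The capitals mark a CCAAT box, the letters bound by NF-Y, which here runs into its own reverse complement from position -48 to -41, counted from the start.
PSMD14: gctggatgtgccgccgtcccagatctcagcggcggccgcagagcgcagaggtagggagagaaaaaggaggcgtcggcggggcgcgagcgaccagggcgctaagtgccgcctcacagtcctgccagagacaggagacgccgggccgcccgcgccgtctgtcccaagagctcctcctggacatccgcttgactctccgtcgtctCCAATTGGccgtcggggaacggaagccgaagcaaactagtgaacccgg

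PSMB2, a subunit of the beta ring, had 99.1, 97.5 and 99.3, and led in qPRO-seq 250k. Its peak centres lay 194, 194 and 314 bp downstream of the nearest GENCODE start, further into the gene than for most of the others. The RefSeq promoter table puts the start of PSMB2 further into the gene than these centres, so the offset depends on the annotation. PSMD10 (gankyrin), a chaperone of regulatory particle assembly that also binds cell-cycle regulators, had 94.3, 99.1 and 98.1. Its top start peak was the widest of the set in PRO-seq 1M (1090 bp) and likewise in qPRO-seq 250k (1040 bp), and its peak also covered the start of ATG4A, an autophagy protease gene on the opposite strand. PSMD2, the scaffold subunit that docks ubiquitin receptors, had 81.5, 96.6 and 82.5. PSMA2, an alpha ring subunit, completed the top 5 of qPRO-seq 1M with 94.7, but had 80.0 in PRO-seq 1M and 48.8 in qPRO-seq 250k.

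The lowest-scored start peak in qPRO-seq 1M belonged to PSMD1, the other large scaffold of the regulatory particle, with 37.8 in PRO-seq 1M, 19.2 in qPRO-seq 1M and 29.8 in qPRO-seq 250k. PSMD1 scored below PSMD2 in all 3 lists. Next were PSMA7 (45.5 and 38.4 in the 1M lists, none in qPRO-seq 250k), PSMA3 (59.1, 48.0 and 29.6), PSMA4 (64.1, 54.7 and 5.60) and PSMC3 (36.1 and 55.5 in the 1M lists, none in qPRO-seq 250k). PSMA3, PSMA4 and PSMA7 are alpha ring subunits and PSMC3 is an ATPase. The top PSMA3 peak was centred at -21 bp from a start (upstream) in PRO-seq 1M but 706 and 406 bp downstream of one in the qPRO-seq lists. Both qPRO-seq lists also had a PSMA3 peak on a start. It was centred 1 bp downstream in qPRO-seq 1M (percentile 47.0) and 4 bp downstream in qPRO-seq 250k (23.1).

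Percentiles of lists of unequal length cannot be set against each other, so the genes were also ranked among the 8566 protein-coding genes with a start peak in all 3 lists (100% is the highest score). The 35 proteasome genes in this set had median ranks of 48.8% in PRO-seq 1M, 62.9% in qPRO-seq 1M and 56.9% in qPRO-seq 250k. The rank was higher in qPRO-seq 1M than in PRO-seq 1M for 21 of 35 genes (interval 43.6% to 74.4%), where 49.3% of all common genes were higher, a share inside the interval. It was higher in qPRO-seq 1M than in qPRO-seq 250k for 16 of 35, against 47.2%. In all 3 lists, 15 of the 35 genes ranked above 50% (42.9%, against 30.8% of all common genes) and 10 ranked below (28.6%, against 30.2%). PSMB2 and PSMD14 were in the top 10% of all 3 lists, as were 251 of the 8566 genes.

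A gene's rank moved over a median of 17.3 percentage points between its highest and lowest list, beside 24.99 for all common genes. The widest range was that of PSMB4, a beta subunit with 7.67% in PRO-seq 1M, 71.2% in qPRO-seq 1M and 48.4% in qPRO-seq 250k. PSMD7, the partner of PSMD14 in the deubiquitinating module, ranked at 33.3%, 30.0% and 91.9%, and PSMA2 at 47.4%, 81.0% and 27.6%. Over the 35 genes, Spearman's rho between lists was 0.764 for PRO-seq 1M with qPRO-seq 1M, 0.767 for both qPRO-seq lists, and 0.784 for PRO-seq 1M with qPRO-seq 250k. Over all common genes it was 0.657, 0.651 and 0.637. These are descriptions across genes of 1 cell line, and genes are not independent replicates.

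The 4 genes with a start peak in both 1M lists and none in qPRO-seq 250k were PSMA7, PSMB7, PSMC3 and PSMD11, which is 4 of 39 (10.3%, 4.06 to 23.6), against 15.4% of the 10127 genes with a peak in both 1M lists. All 4 code for constitutive subunits. Their PRO-seq 1M percentiles were 45.5, 27.1, 36.1 and 38.5, and their qPRO-seq 1M percentiles were 38.4, 71.7, 55.5 and 56.4. All these values lay below the median of all genes in the same list. The nearest qPRO-seq 250k peak was 2.24 kb away for PSMA7, 17.5 kb for PSMC3, 93.5 kb for PSMD11 and 180 kb for PSMB7. The depth behind the lists is unknown, so a start with no peak is one that was not called, and not one shown to be silent.

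Start peaks lie near a start by definition, and distances were taken to the nearest of a gene's starts. The distances of the centres have no value over all genes beside them, so they are a description and not a trait of these genes. The median distance from the centre of the top peak to the nearest start was 76.0 bp in PRO-seq 1M, 46.0 bp in qPRO-seq 1M and 24.0 bp in qPRO-seq 250k, and 27 of 39, 31 of 39 and 30 of 35 centres lay within 100 bp. The median width was 540, 550 and 510 bp, beside 550, 540 and 470 bp over all genes with a start peak. The widest top peak in qPRO-seq 1M belonged to the non-ATPase PSMD8 (1000 bp). The narrowest were those of PSMB4 in PRO-seq 1M (250 bp), the ATPase PSMC1 in qPRO-seq 1M (290 bp) and the non-ATPase PSMD3 in qPRO-seq 250k (190 bp). The top peaks of 36 of 39 genes overlapped between the 1M lists, against 90.3% of all genes with a start peak in both, with a median of 30.0 bp between the centres that overlapped. Between the qPRO-seq lists 32 of 35 overlapped (against 90.7%), and between PRO-seq 1M and the 250k list 31 of 35 (against 91.4%). These shares lay near the background. In all, the genes had 66, 82 and 46 start peaks, and every one of the 46 in qPRO-seq 250k was overlapped by a peak of qPRO-seq 1M, as were 98.1% of the start peaks of all genes. A gene had 2 or more start peaks in 22 of 39, 25 of 39 and 10 of 35 cases, against 49.6%, 61.6% and 32.7% of all genes with one.

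**Figure D3:**
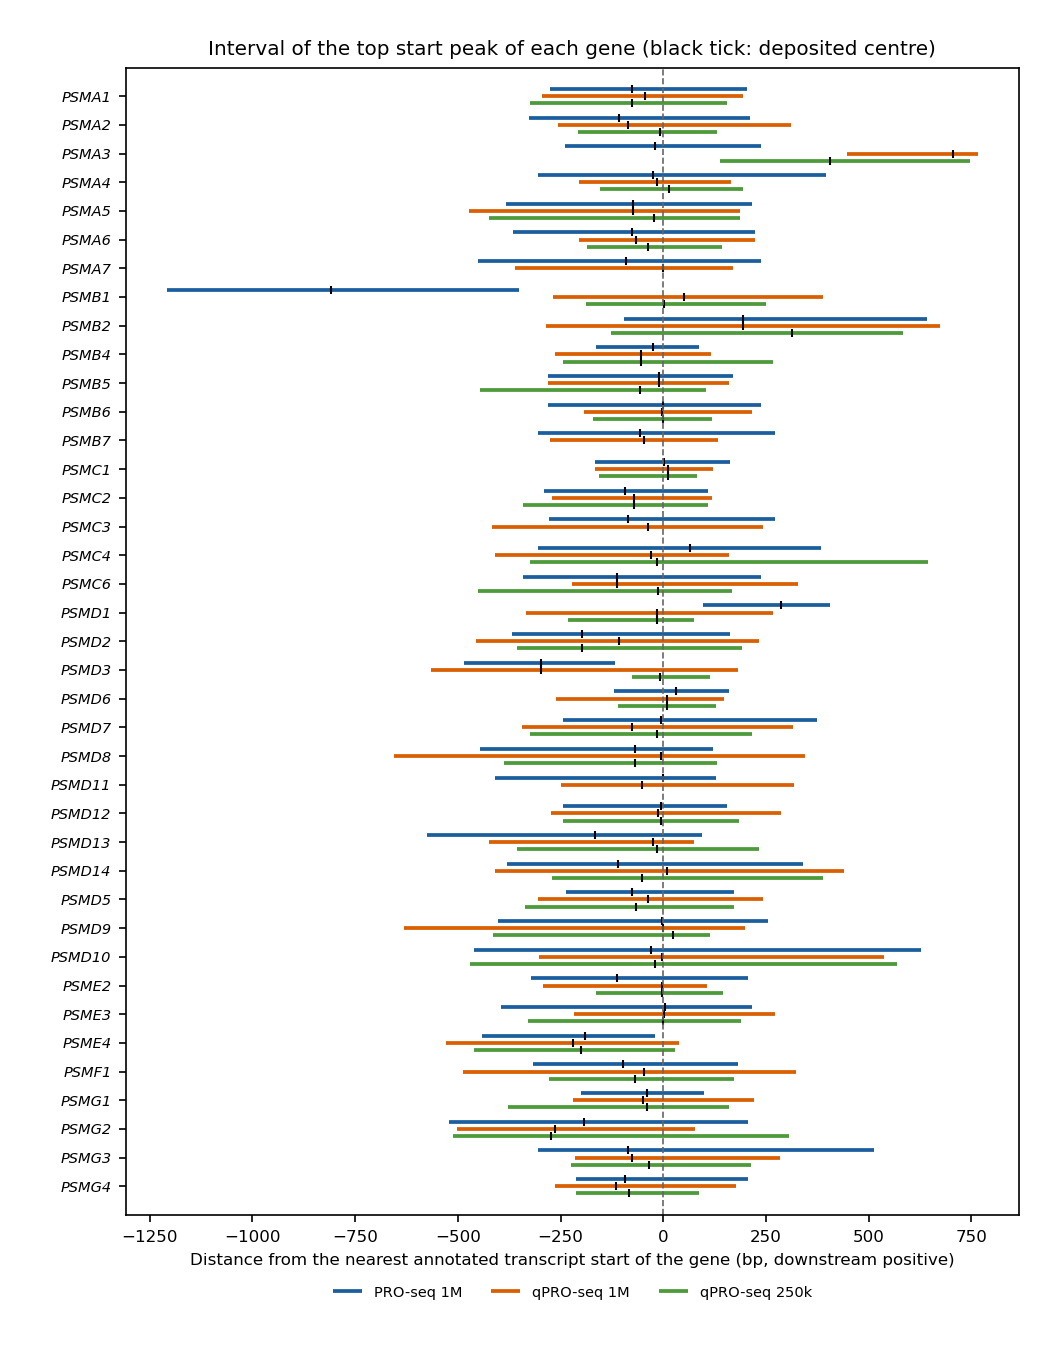
Interval of the top start peak of the 39 proteasome genes with one, as distance in bp from the nearest annotated start (x axis, downstream positive); lines are the 3 lists and black ticks the deposited centres. Most intervals span 0, PSMB1 in PRO-seq 1M is centred at -809 bp, and PSMA3 in qPRO-seq 1M at 706 bp.

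PSMA1 and PSMB1 show that a start peak need not belong to the subunit gene alone. PSMA1, an alpha subunit on the minus strand of chromosome 11, has 2 start regions, at 14520445 and at 14643635. The far start lies 88 bp from the start of PDE3B, a phosphodiesterase gene on the other strand. In PRO-seq 1M the far peak scored higher (93.8 against 89.8), in qPRO-seq 1M the near one did (92.7 against 86.2), and qPRO-seq 250k had the far peak alone (97.4). With the starts of the RefSeq promoter table, which do not include the far one, PSMA1 therefore had no start peak in qPRO-seq 250k. This was the only gene that changed among the 43 with a RefSeq start, of which 34, 34 and 31 had a start peak (79.1%, 79.1% and 72.1%, against 53.4%, 54.3% and 44.6% of all genes in that table). PSMB1, a beta subunit, starts 961 bp from TBP, the TATA-binding protein gene. Its top peak in PRO-seq 1M (74.1) covered the TBP start, while a second peak (66.0) covered its own. In both qPRO-seq lists the top peak lay on its own start.

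Several start peaks were shared with a neighbouring gene, in shares near the background. The top start peak also lay within 500 bp of a start of another protein-coding gene for 11 of 39, 10 of 39 and 9 of 35 genes, against 27.6%, 27.0% and 29.6% of all genes with a start peak. The opposite-strand neighbours that shared a peak in all 3 lists were MRPL32 (with PSMA2), SIRT3 (PSMD13), ATG4A (PSMD10), RNF31 (PSME2), BECN1 (PSME3), ACYP2 (PSME4) and CEP76 (PSMG2). SS18L1 shared the PSMA7 peak in both 1M lists. PSMA2, PSMD9 and, in qPRO-seq 1M, PSMA1 also shared theirs with an overlapping gene record on the same strand. dREG peaks carry no strand in these lists, so the share of each gene in such a peak cannot be told apart.

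The activators PSME1 and PSME2 code for the interferon-inducible ring that opens the core and lie near each other on chromosome 14. PSME2 had 2 start peaks in each list. The peak at the upstream start region (24147258) was the top one in PRO-seq 1M (68.4 against 44.9) and qPRO-seq 1M (66.5 against 54.6), and the peak at the downstream region (24146646) in qPRO-seq 250k (45.3 against 31.1). PSME1 had no start peak, and the nearest peak in every list, 8.96 to 8.98 kb away, was the downstream start peak of PSME2. PSME3 (93.1, 91.9 and 88.0) and PSME4 (91.1, 93.8 and 74.5), whose activators act mainly in the nucleus, had higher percentiles than PSME2 in all 3 lists.

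Promoter stretches of PSME1, PSME2, PSMB8 and PSMB10 are shown here as examples that hold the same letters. The start is called for PSME2 and uncalled for the other genes shown. The core chaperone gene PSMG4, not shown, holds the same letters and had a start peak in all 3 lists. The letters were thus not confined to interferon-linked genes, nor PSME2 the only called start with them. The interferon response motif, TTTC followed after any 2 bases by TTTC, was searched on both strands of the RefSeq promoter table, which gives 250 bases before to 50 after each start. Of the 49 genes, 43 matched by symbol, with 53 promoters. The motif was in 7 of the 53 (13.2%), against 3.58% of all 34961 promoters in the table. These 7 were promoters of PSMA4, PSMB4, PSMB8, PSMB10, PSME1, PSME2 and PSMG4. Among promoters with a qPRO-seq 1M peak within 500 bp, the motif was in 4 of 38 proteasome promoters, against 322 of all 13227 (2.43%). The lines give the stretch around it, read 5′ to 3′ on the strand of the gene, with the match in capitals (GAAA reads as TTTC on the other strand): PSME1 at chr14:24136174-24136213 on the plus strand, and PSME2 at chr14:24146604-24146663, PSMB8 at chr6:32844028-32844076 and PSMB10 at chr16:67936837-67936896 on the minus strand.
PSME1: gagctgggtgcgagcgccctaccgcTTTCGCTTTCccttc
PSME2: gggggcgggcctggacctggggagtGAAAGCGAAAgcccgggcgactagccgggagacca
PSMB8: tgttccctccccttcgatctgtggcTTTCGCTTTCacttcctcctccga
PSMB10: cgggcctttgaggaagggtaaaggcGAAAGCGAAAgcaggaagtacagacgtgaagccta
The PSME2 stretch lay inside a peak in all 3 lists, while those of PSME1, PSMB8 and PSMB10 overlapped none. A match is a run of letters and not a measured binding site.

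PSMB8 and PSMB9 lie beside each other in the major histocompatibility complex on chromosome 6, and their lack of a peak is shared by their surroundings. The stretch without any peak around them spanned 4.95 Mb in PRO-seq 1M, 1.79 Mb in qPRO-seq 1M and 5.08 Mb in qPRO-seq 250k, beside a median distance of 16.2, 7.32 and 37.4 kb between neighbouring peaks. It held the starts of 178, 95 and 181 protein-coding genes, more than any other stretch without a peak in the same list. TAP1, TAP2 and TAPBP, which load peptides onto class I molecules and lie in the same region, had no start peak in any list. The lists also held 25, 66 and 16 peaks on alternate scaffolds of chromosome 6, which carry other versions of parts of that chromosome. The part of read placement in the gap was not tested, so these lists do not show whether PSMB8 and PSMB9 were transcribed. PSMB10 lies on chromosome 16, outside such a gap: its nearest peak was 30.9, 31.4 and 31.5 kb away, and the stretch around it held the starts of 4 or 5 protein-coding genes. Outside the complex, the interferon response factor IRF1 had a start peak in all 3 lists, B2M in qPRO-seq 1M alone (37.1) and NLRC5, the activator of class I genes, in none.

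**Figure D4:**
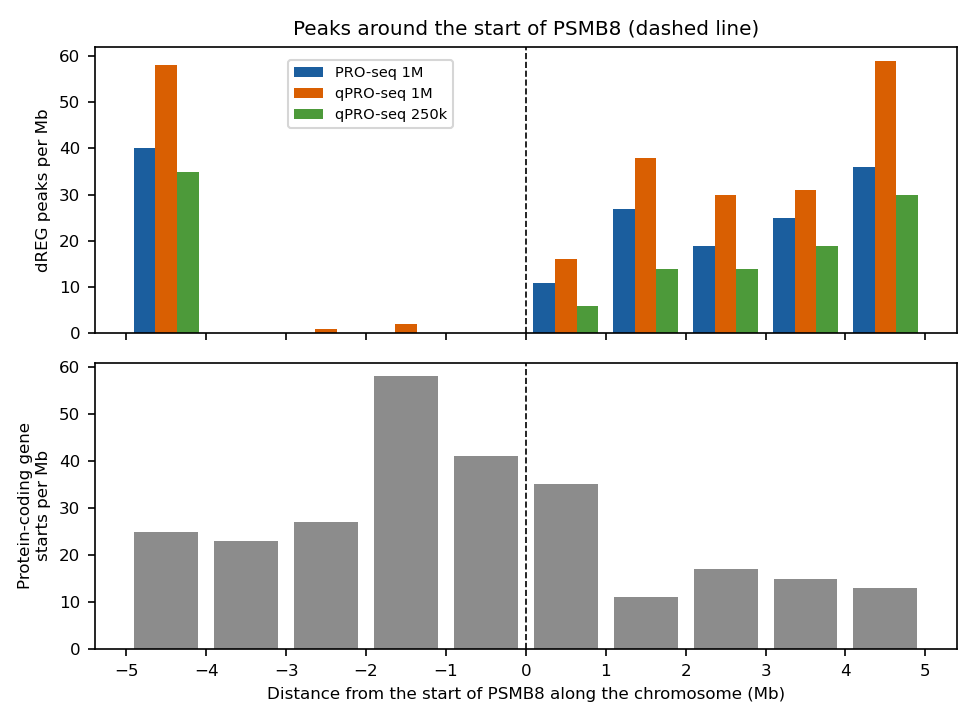
Peaks per Mb in each list (upper plot) and protein-coding gene starts per Mb (lower plot) by distance from the start of PSMB8 along the chromosome (x axis, Mb). From 4 Mb before to the start of PSMB8 the bins hold 23 to 58 gene starts but 3 peaks in all in qPRO-seq 1M and 0 in both other lists.

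Among the constitutive subunits, PSMB3, PSMC5 and PSMD4 had no start peak in any list. PSMD4 is a ubiquitin receptor and PSMC5 an ATPase, and the nearest peaks were 14.6 to 14.7 kb from PSMD4 and 11.3 to 11.5 kb from PSMC5 in all 3 lists. The beta subunit gene PSMB3 was 91.3 kb from a peak in PRO-seq 1M, in a stretch of 2.31 Mb without peaks that held the starts of 30 genes. In qPRO-seq 1M a peak lay 2786 bp from its nearest start (percentile 25.8), and in qPRO-seq 250k one lay 746 bp away (12.7), just outside the window of 500 bp. Chromosome 17 had 3, 15 and 2 peaks on alternate scaffolds, and their part in the PSMB3 result was not tested. PSMA8 was 42.4 to 42.5 kb from a peak and PSMB11 6.66 to 6.83 kb, where the nearest peak was the start peak of PSMB5, the constitutive subunit that PSMB11 replaces. PSMC3IP was 15.5 to 22.6 kb from one. The 10 genes without a start peak had a median length of 5.20 kb and the 39 with one 18.9 kb. The part of gene length was not tested.

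The antioxidant response core TGACNNNGC holds the letters known to be bound by NFE2L1 and NFE2L2 with small MAF proteins. It was in 15 of the 53 proteasome promoters (28.3%), against 13.4% of all promoters. Among promoters with a qPRO-seq 1M peak, it was in 10 of 38 proteasome promoters (26.3%), against 15.2% of all such promoters. The examples set PSMA4 (chr15:78540635-78540693) and PSMD12 (chr17:67366709-67366767, minus strand), whose stretches lay inside a peak in all 3 lists, beside PSMB3 (chr17:38752612-38752670) and PSMC5 (chr17:63827639-63827697), which overlapped none. Capitals mark the match, which in PSMC5 lies on the opposite strand, and no stretch reaches the start.
PSMA4: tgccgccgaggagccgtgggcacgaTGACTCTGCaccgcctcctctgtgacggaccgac
PSMD12: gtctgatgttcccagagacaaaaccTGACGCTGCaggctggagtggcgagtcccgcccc
PSMB3: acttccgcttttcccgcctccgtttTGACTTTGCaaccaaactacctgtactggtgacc
PSMC5: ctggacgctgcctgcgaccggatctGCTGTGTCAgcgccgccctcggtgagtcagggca
The letters were thus present at called and uncalled starts alike. The peaks that held the PSMA4 stretch had percentiles of 64.1, 36.1 and 5.60, and those that held the stretch of PSMD12, a scaffold of the lid, had 84.7, 93.4 and 92.8. In qPRO-seq 1M the top start peak of PSMA4 was another one (54.7).

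Of the other motifs, the ETS site CCGGAAG was in 17 promoters (32.1%), against 10.3% of all and 20.1% of those with a qPRO-seq 1M peak. CCAAT was in 22 (41.5%, against 34.6% and 36.0%) and the GC box GGGCGG in 37 (69.8%, against 45.0% and 72.1%). TATAAA was in 5 (9.43%, against 11.5% and 4.98%), the NRF1 palindrome in 2 promoters, both of PSMA4 (3.77%, against 1.24% and 2.63%), and the YY1 site in 1, that of PSMD11 (1.89%, against 0.852% and 2.03%). Among the 38 proteasome promoters with a qPRO-seq 1M peak, the shares were 36.8% (ETS), 42.1% (CCAAT), 68.4% (GC box), 7.89% (TATAAA), 5.26% (NRF1) and 2.63% (YY1). These are the shares to set beside the second background of each motif. Both strands were searched, and promoters of 1 gene can overlap. PSMA7, PSMB1, PSMB6, PSMB7, PSMD4 and PSMG3 were not in the table.

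The regulators of the proteasome genes also had start peaks. NFE2L1, NFE2L2, DDI2 (the protease that activates NFE2L1), NGLY1 (which removes its sugars), MAFF and MAFG had one in all 3 lists, and MAFK in both 1M lists. Among them, NFE2L2 was highest in PRO-seq 1M (99.1), NGLY1 in qPRO-seq 1M (97.4) and DDI2 in qPRO-seq 250k (94.6). NFE2L1 had percentiles of 78.3, 72.0 and 79.9. Of 24 partners of the proteasome and ubiquitin pathway, 21, 21 and 19 had a start peak. POMP, the maturation chaperone of the core, had the highest percentile of the 24 in each list, with 97.9, 97.6 and 98.8. SEM1, a small lid subunit outside the symbol rule, had 58.2, 87.3 and 92.6. The ubiquitin receptor ADRM1 and the ubiquitin-activating enzyme UBA1 were among those with a start peak in none.

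Among pseudogenes named after the proteasome genes, 0 of 31 had a start peak in any of the 3 lists, which allows a share of up to 9.68%. Over all pseudogenes the share was 2.76%, 3.67% and 2.12%, so a count of 0 among 31 is near the background. Of 5 antisense or long noncoding genes with such names, PSMA3-AS1 and PSMG3-AS1 had a start peak in all 3 lists. PSMB8-AS1, in the stretch without peaks on chromosome 6, had none. No share over all such genes was computed, so this count is a description only. The lower end of the PSMG3-AS1 record (chr7:1570073) lies inside the top start peak of PSMG3 in all 3 lists. That peak has no strand and may count for both genes.

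Peaks inside the gene bodies and more than 500 bp from the start of any gene were found in 3 of the 49 genes in PRO-seq 1M (against 12.0% of all protein-coding genes), in 10 in qPRO-seq 1M (against 23.1%) and in 2 in qPRO-seq 250k (against 7.01%). In PSMD10 the body peaks of the 3 lists overlapped each other (chrX:108088371-108089160 in qPRO-seq 1M), at percentiles of 59.0, 99.7 and 72.2. In qPRO-seq 1M this peak ranked above the top start peak of the gene (99.1). Overlapping body peaks were also found in PSMA1 (chr11:14591601-14592140 in qPRO-seq 1M), at 28.3, 85.9 and 20.1.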

How the data were processed

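Precision run-on libraries of K562 cells were analysed as 3 deposited dREG peak lists, 1 per group of 2 replicates. Per the labels, each list is named for both replicates; how they were pooled is not given in the sources used here. The submitters' processing notes name fastp 0.20.0, Bowtie2 2.3.5.1, UMI-tools, deepTools 3.1.3 and build hg38. The dREG version is not given in the sources used here. The authors deposited for each peak its position, a score with no fixed unit and a p-value between 0 and 0.05. Scores were used to rank and filter peaks within a list and p-values in 1 alternative.

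Starts were those of GENCODE release 29 transcripts. Promoters came from the RefSeq table of GRCh38.p14 and peaks on other sequences than chromosomes 1 to 22 and X were left out. Shares have Wilson 95% intervals. The lists hold no read counts, so the depth is unknown and no p-value was computed. The start-peak search was checked on simulated data. Alternatives were 2 other windows, 2 stricter peak sets, equal list sizes, centres, other start sets, merged peaks and, added after seeing the data, sets without PSMC3IP or with constitutive subunits only.

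Genes named were those without a start peak in a list, the 5 highest and the 5 lowest in qPRO-seq 1M, the widest and narrowest peaks, the immune, activator and tissue-restricted genes, and those sharing a peak with another gene. PSMB4 and PSMD7 as examples of wide rank ranges, PSMD12 and the other pathway genes given with values were chosen after their values were seen. Some genes of the marker, immune partner and pathway lists are not reported here. The members and lists were chosen with earlier results of these data known. Versions were Python 3.11.15, pandas 2.3.3, numpy 2.4.6, scipy 1.17.1 and matplotlib 3.10.9.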

Additional observations from a re-analysis of the deposited data

Results flagged for a closer look

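The lists also held peaks on sequences outside the chromosomes used here. Alternate scaffolds of chromosome 6, where PSMB8 and PSMB9 lie, held 25 peaks in PRO-seq 1M, 66 in qPRO-seq 1M and 16 in qPRO-seq 250k. Those of chromosome 17, where PSMB3 lies, held 15 in qPRO-seq 1M. Each count is above 3, a fixed limit used to flag counts, which is not a test. Whether any of these peaks lies at a proteasome gene was not tested.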

How the results depend on the processing

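Of 99 values under the alternatives, 97 stayed within 1.5 times the count, or within the 95% interval of the median, and 2 moved, the median width with peaks within 500 bp merged (740 bp in PRO-seq 1M and 1040 bp in qPRO-seq 1M), which joins peaks by construction. With each list reduced to its top 15562 peaks, 36 and 33 of the 49 genes had a start peak in the 1M lists, against 35 in qPRO-seq 250k, so the count was no longer lowest in qPRO-seq 250k. Peaks at or above the median score gave 29, 36 and 25 genes (the first and last below the counting interval of the full lists), a p of at most 0.01 gave 38, 39 and 30, and the start of the gene record alone gave 35, 35 and 30. A window of 1000 bp added PSMB3 in qPRO-seq 250k (36 genes). The count exceeded its background share under every alternative run. No paired analysis was possible because each group has 1 list for both of its replicates and the results come from no test; leaving out a replicate could not be run for the same reason. Depth is unknown, so a start without a peak was not called, not shown to be inactive.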
